A study of Homo sapiens with 18 samples.

Results

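Counts of ATAC-seq reads, which come from DNA that a transposase could reach in isolated nuclei, were examined for 43 of the longest autosomal human genes, most of them known for work in neurons. They were taken by name from a list of such genes with a genomic span of about 500 kb or more, and all 43 were found among the 54425 gene entries of the table. Libraries were made from HEK293T cells, an embryonic kidney line, that carried cDNA fusions of MLL (KMT2A) and AF4 (AFF1) like those formed by the t(4;11) translocation of acute leukemia. AF4-MLL cells carried inducible AF4-MLL, MLL-AF4 cells carried inducible MLL-AF4, and co-expression cells carried constitutive MLL-AF4 together with inducible AF4-MLL. Each setting was sampled on day 3 and on day 28, with 3 libraries per group and 18 in all. Induction was by doxycycline at 1 µg/ml for 48 h in all settings. In the study the inducible fusions were shut down again long before day 28. Below, phrases such as with both fusions or with AF4-MLL alone name the setting on either day, not the fusions expressed on that day. In the study's methods the cells were transfected with Sleeping Beauty vectors, AF4-MLL entered the co-expression cells by transient transfection, and a change of medium on day 3 ended its induction, after which the vector was lost from the cells as they divided. No cells without a fusion construct were among the libraries used here, so settings and days were compared only with each other. The labels number the libraries of a group as replicates without naming separate cultures, and p-values measure the spread between them. The study's methods on RNA state 3 biological replicates for all experiments.

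Genes of this length are rare in the genome and are largely intron. Many encode proteins of the neuronal surface and synapse, which guide axons, hold synapses together or carry signals across them. A few, such as WWOX and FHIT, are known for common fragile sites, chromosome regions that break under replication stress. In ATAC-seq, accessible DNA usually lies at promoters and enhancers rather than along the whole transcribed body.

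The 43 genes spanned 643 kb (LSAMP) to 2474 kb (RBFOX1), with a median of 1214 kb in RefSeq annotation of GRCh38.p14. Cell adhesion molecules and their partners made up 15 of them, guidance or growth factor signals 8, and enzymes or regulators inside the cell 8. Synaptic channels, receptors or scaffolds made up 6, and other surface or extracellular proteins 6. The edgeR filter on low counts passed 36 of the 43, among 17660 genes tested. CNTN4, CTNNA2, DCC, DPP10, KCNIP4, NRG3 and OPCML did not pass and were described by their counts only. Every one of the 43 overlapped another RefSeq gene, and 11 overlapped a protein-coding one. Reads of this assay carry no strand, so overlapping genes can share them.

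Promoter sequence was shown for the 2 genes with the highest mean counts, the 2 with the lowest, and for CNTNAP2 and EYS, whose counts differed between groups below. Each sequence holds the 250 bases before the outermost start listed by RefSeq (GRCh38.p14), read 5′ to 3′ on the strand of the gene, with every CG dinucleotide in capitals. The windows were chr13:93226557-93226806 (plus strand) for GPC6, chr7:79453668-79453917 (minus strand) for MAGI2 and chr7:146116551-146116800 (plus strand) for CNTNAP2. They were chr6:65707227-65707476 (minus strand) for EYS, chr11:133532502-133532751 (minus strand) for OPCML and chr10:81874944-81875193 (plus strand) for NRG3. The start listed for GPC6 lay 10278 bases inside the annotated gene, and the other starts lay at its edge.
GPC6: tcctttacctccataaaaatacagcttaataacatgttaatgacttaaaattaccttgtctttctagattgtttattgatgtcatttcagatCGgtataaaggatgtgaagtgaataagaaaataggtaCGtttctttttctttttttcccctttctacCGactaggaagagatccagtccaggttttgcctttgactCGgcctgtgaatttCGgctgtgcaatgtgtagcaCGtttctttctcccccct
MAGI2: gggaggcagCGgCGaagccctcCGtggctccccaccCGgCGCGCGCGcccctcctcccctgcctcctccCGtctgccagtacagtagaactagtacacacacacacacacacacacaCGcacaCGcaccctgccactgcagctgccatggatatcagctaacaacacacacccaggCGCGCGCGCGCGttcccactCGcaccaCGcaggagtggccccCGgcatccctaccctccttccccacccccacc
CNTNAP2: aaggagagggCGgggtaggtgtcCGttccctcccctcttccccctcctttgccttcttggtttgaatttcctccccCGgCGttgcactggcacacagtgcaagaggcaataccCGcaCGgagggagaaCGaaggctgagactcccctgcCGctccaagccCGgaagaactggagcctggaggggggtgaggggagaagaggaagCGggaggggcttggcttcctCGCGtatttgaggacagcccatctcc
EYS: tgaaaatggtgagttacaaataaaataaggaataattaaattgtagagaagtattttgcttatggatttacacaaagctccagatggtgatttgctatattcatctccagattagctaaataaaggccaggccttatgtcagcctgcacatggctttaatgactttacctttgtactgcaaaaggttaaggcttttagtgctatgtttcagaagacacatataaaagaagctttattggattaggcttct
OPCML: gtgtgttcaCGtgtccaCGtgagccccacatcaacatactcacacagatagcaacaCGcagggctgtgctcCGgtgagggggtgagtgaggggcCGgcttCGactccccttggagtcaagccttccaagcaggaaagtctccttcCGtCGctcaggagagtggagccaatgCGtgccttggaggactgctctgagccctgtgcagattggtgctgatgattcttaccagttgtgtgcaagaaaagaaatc
NRG3: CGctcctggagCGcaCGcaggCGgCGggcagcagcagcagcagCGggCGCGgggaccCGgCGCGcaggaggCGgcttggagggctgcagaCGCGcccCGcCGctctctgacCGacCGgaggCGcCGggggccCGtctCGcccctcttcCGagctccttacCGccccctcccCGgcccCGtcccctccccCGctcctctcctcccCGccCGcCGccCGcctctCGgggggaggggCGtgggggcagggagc

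The CG dinucleotide reads the same on both strands. EYS had 0 CG in this window, GPC6 had 6, OPCML 9, CNTNAP2 12, MAGI2 20 and NRG3 33, although NRG3 had the lowest mean count of the 43 and GPC6 the highest. RefSeq promoter sequences were available for 37 of the genes, and 36 of them (97.3%) held at least 1 CG, beside 96.9% of 14755 protein-coding promoters of the same length. Not all of the 37 listed starts lay at the gene edge, and that of RBFOX1 lay 779303 bases inside. The median number of CG was 11 in the 37 promoters and 17 in protein-coding promoters. A ratio of observed to expected CG over 0.6 was found in 21 of the 37 (56.8%) and in 64.1% of protein-coding promoters. Across genes, which are not independent replicates, Spearman's rho of CG number and mean count was −0.09 over the 37 and 0.44 over the protein-coding genes. Of the 37 genes, 25 (67.6%) had more than 1 listed start, beside 26.3% of protein-coding genes. DLG2, which encodes a scaffold protein of the synapse, had the most with 9.

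Library totals ran from 442159 to 3539937 counts, of which mitochondrial genes took 32.7% to 68.5%. The mitochondrial share was 63.6% to 68.5% on day 28 and 32.7% to 45.6% on day 3, so that it cannot be told apart from the day. The 43 genes together received 18499 counts in the 18 libraries. The deposited table does not say which region was counted for each gene, and the values did not behave as counts along whole gene bodies. The spans of the 43 covered 60.4 Mb, or 3.598% of the 1678 Mb covered by RefSeq genes, while they received 0.186% of the nuclear counts (those outside mitochondrial genes and named mitochondrial copies). The median protein-coding gene had 5.76 CPM (the usual per-library scaling of counts, by size) with a span under 10 kb, 16.4 CPM with 30 to 100 kb and 15.0 CPM with 500 kb or more. From 30 kb upward, Spearman's rho of span and mean CPM was 0.04 over 8459 protein-coding genes. CPM here used library sizes scaled by TMM, edgeR's trimmed mean of M-values.

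The median of mean CPM over the 43 genes was 12.6, beside 13.5 for all protein-coding genes, and 23 of the 43 lay below the latter. Mean CPM varied 17.3-fold among the 43, while their spans varied 3.85-fold. Spearman's rho of span and mean CPM over the 43 was 0.23, a description across genes that share the same libraries. Per Mb of span their median was 7.88 CPM, beside 20.2 CPM for protein-coding genes of 500 kb and over and 1246 CPM for those under 10 kb. Since CPM hardly grew with span, values per Mb fall with span by construction. This order is therefore no result about the long genes, and ranks per Mb partly restate span.

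Guidance and growth factor genes included both the highest and the lowest level. GPC6, which encodes a glypican of the cell surface, had 37.1 CPM in the lowest library, 54.7 in the median and 70.3 in the highest. NRG3, which encodes a neuregulin ligand of the receptor encoded by ERBB4, had 0.667, 2.83 and 6.98 CPM. These 2 genes were picked as the extremes of the same 18 libraries, so it is no separate result that their ranges did not overlap. Per Mb of span GPC6 had 46.6 CPM, the most of the 43, and NRG3 had 2.88 CPM, the least. ERBB4 itself had a mean of 10.2 CPM and NRG1, a second ligand gene, 7.71 CPM. The axon guidance receptor genes ROBO1 and ROBO2 had 34.4 and 25.1 CPM, and DCC, the netrin receptor gene, had 4.06 CPM with 0 to 11 counts in a library.

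Enzyme and regulator genes had a median of 17.1 CPM. WWOX, which encodes an oxidoreductase with WW domains, had 27.9 CPM in the lowest library, 47.7 in the median and 66.2 in the highest. It was second to GPC6 per Mb of span, with 42.5 CPM. Next to it in mean CPM was PDE4D, which encodes a phosphodiesterase that breaks down cyclic AMP, with 43.3 CPM. Their ranges over libraries overlapped. FHIT had 11.6 CPM, the neuronal splicing factor gene RBFOX1 13.8 CPM, the transcription factor gene SOX5 15.0 CPM and DAB1, which relays reelin signals, 9.13 CPM.

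Adhesion genes had the lowest median of the 5 role groups, 7.47 CPM over 15 genes. NRXN3, which encodes a presynaptic neurexin, had 39.8 CPM and CNTNAP2, a relative of the neurexins, 38.2 CPM. The classical cadherin gene CDH12 had 28.5 CPM, while its relatives CDH13 and CDH18 had 6.94 and 6.58 CPM. OPCML, which encodes a small adhesion protein anchored in the membrane by lipid, had 0.683 CPM in the lowest library, 3.21 in the median and 6.65 in the highest. Its relatives NTM and LSAMP had means of 6.67 and 13.4 CPM.

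Among synaptic genes the scaffold gene MAGI2 stood highest with 51.6 CPM and the scaffold gene DLG2 had 17.1 CPM. DPP6 and DPP10 encode related partners of potassium channels, and had 15.2 and 4.33 CPM. DPP10 had 1.40 CPM in the lowest library, 3.81 in the median and 11.4 in the highest, and with 3.09 CPM per Mb of span it was the third lowest of the 43. Among other surface or extracellular proteins, CSMD2 had 12.7 CPM in the lowest library, 26.3 in the median and 34.8 in the highest. With 40.2 CPM per Mb it ranked 3 of the 43, at a span of 652 kb, while it ranked 11 by mean CPM. Its relatives CSMD3 and CSMD1 had means of 14.3 and 8.40 CPM, and LRP1B, of the LDL receptor family, had 33.9 CPM.

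**Figure D1:**
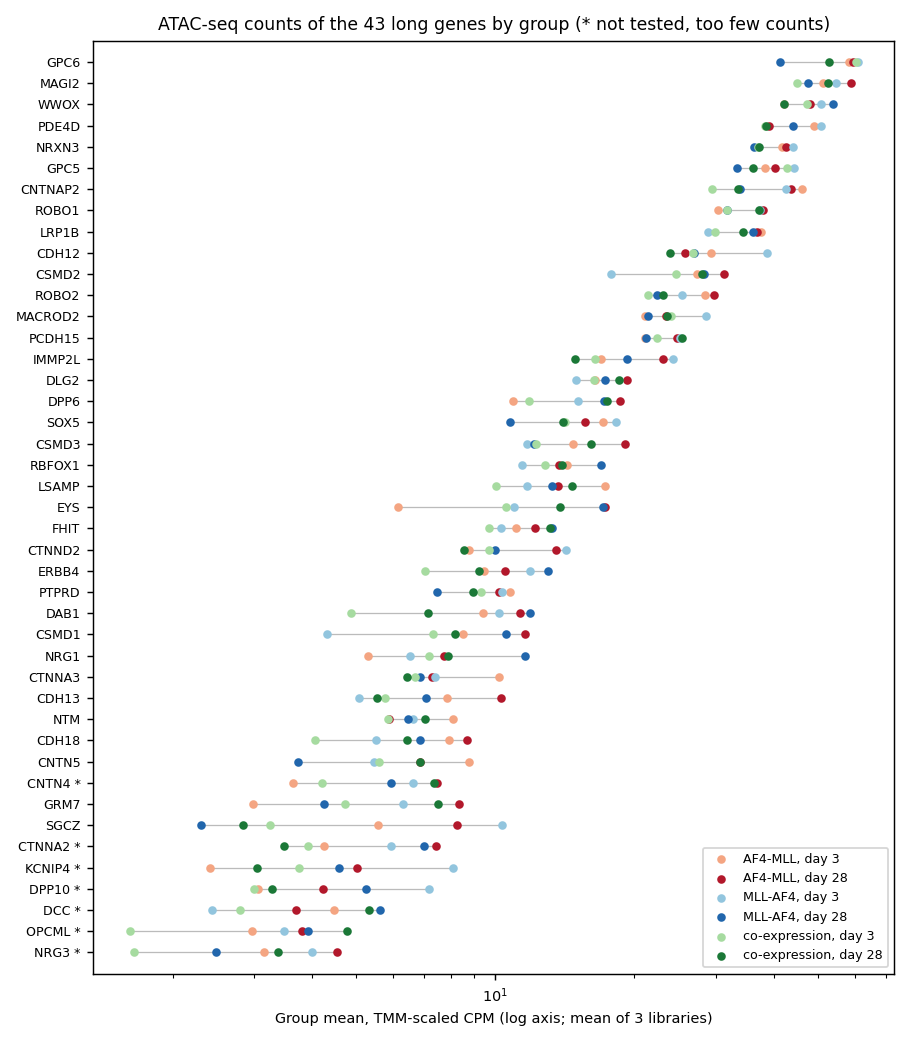
Group means of TMM-scaled CPM (horizontal, log axis, not scaled by length) of the 43 long genes, 1 point per group of 3 libraries. Genes are ordered by their mean over all libraries, from 55.6 CPM (GPC6) to 3.21 CPM (NRG3), and the spread between groups is widest among the genes with few counts.

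Markers of cell types were checked in these counts, which measure DNA and not RNA. Of 10 genes used in the kidney or in kidney-derived lines, means ran from 4.71 CPM (SALL1) to 75.01 CPM (VIM). Of 8 blood genes they ran from 1.72 CPM (CD14) to 19.4 CPM (SPI1), and the ranges of these lists overlapped. The 32 neuronal genes on a list of short genes had a median of 13.4 CPM, beside 12.6 CPM for the long ones and 36.7 CPM for 24 short genes that all cells use.

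Day 28 was compared with day 3 to ask what differed between the end of the induction and a later time of culture. In AF4-MLL cells 1 of the 36 long genes tested rose, and none fell. Across all 17660 genes 0.453% rose and 0.153% fell. The gene that rose was EYS, which encodes an extracellular protein needed by photoreceptors. Its counts in replicates 1, 2 and 3 were 8, 6 and 7 on day 3 and 24, 35 and 24 on day 28. As CPM the day 28 libraries had 15.6, 19.3 and 16.7 and the day 3 libraries 4.38, 8.68 and 5.39. Every library of day 28 lay above those of day 3. Means were 6.15 ± 2.25 and 17.2 ± 1.90 CPM (SD, n = 3), and the log2 difference was 1.63 (SE 0.33, edgeR adjusted p 0.000428).

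The level of EYS in AF4-MLL cells on day 3 was the lowest of its 6 group means. In MLL-AF4 cells EYS had 14.5, 11.4 and 6.94 CPM on day 3 and 20.6, 14.5 and 16.1 CPM on day 28, and the log2 difference was 0.61 (95% interval −0.03 to 1.25). In co-expression cells it had 8.67, 13.4 and 9.56 CPM on day 3 and 15.0, 13.1 and 13.3 CPM on day 28, with a log2 difference of 0.42 (95% interval −0.16 to 1.00). The groups overlapped in both of these settings. The change in AF4-MLL cells was not shown to differ from that in MLL-AF4 cells (difference of log2 changes 1.03, edgeR adjusted p 0.468) or in co-expression cells (co-expression minus AF4-MLL −1.21, adjusted p 0.955). The span of EYS overlaps 2 protein-coding genes, and its 3 tested neighbours within 5 Mb had a median log2 difference of 0.17 with 0 called. Without replicate 1 of AF4-MLL cells on day 3 the log2 difference was 1.39 and the adjusted p 0.101. DESeq2 gave 1.63 with an unadjusted p of 7.48e-05 and no adjusted p.

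In MLL-AF4 cells 1 of the 36 genes fell between day 3 and day 28 and none rose, where 1.57% of all genes tested fell and 1.29% rose. SGCZ, which encodes a sarcoglycan of the muscle and vessel membrane, had 9, 11 and 6 counts on day 3 and 0, 6 and 4 counts on day 28. These were 10.04, 13.95 and 6.94 CPM on day 3 and 0, 3.35 and 3.58 CPM on day 28. Every library of day 28 lay below those of day 3. Means were 10.3 ± 3.52 and 2.31 ± 2.003 CPM (SD, n = 3), and SGCZ fell by 2.03 on the log2 scale (SE 0.53, edgeR adjusted p 0.0127). At these counts single reads decide the size of the fold.

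SGCZ was also counted at few reads in the cells with both fusions. It had 2.67, 2.98 and 4.10 CPM in co-expression cells on day 3 and 4.70, 2.49 and 1.33 CPM on day 28, with a log2 difference of 0.03 (95% interval −1.07 to 1.13). In AF4-MLL cells it had 7.67, 2.89 and 6.17 CPM on day 3 and 5.86, 10.5 and 8.37 CPM on day 28, with a log2 difference of 0.41 (95% interval −0.38 to 1.21). The change in AF4-MLL cells minus that in MLL-AF4 cells was 2.45 (SE 0.67, edgeR adjusted p 0.0694), which missed the threshold. This call on SGCZ was lost when day 28 lacked replicate 1 (log2 −1.54, adjusted p 0.122), or when day 3 lacked replicate 1 (−2.05, 0.0574) or replicate 2 (−1.78, 0.127). DESeq2 gave −2.09 with an unadjusted p of 0.00095 and no adjusted p. The 35 tested neighbours of SGCZ within 5 Mb had a median of −0.23, and 2 of them were called.

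GPC6 came next in MLL-AF4 cells and missed the threshold. It had 54.7, 63.4 and 64.7 CPM on day 3 and 37.1, 42.4 and 44.8 CPM on day 28, groups that did not overlap. The log2 difference was −0.55 (SE 0.17, edgeR adjusted p 0.0518). On day 3 and day 28 its group means were 60.3 ± 4.02 and 52.8 ± 13.5 CPM with both fusions and 58.3 ± 9.62 and 59.6 ± 9.32 CPM with AF4-MLL (SD, n = 3). The MLL-AF4 cells of day 28 thus had the lowest group mean of GPC6.

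**Figure D2:**
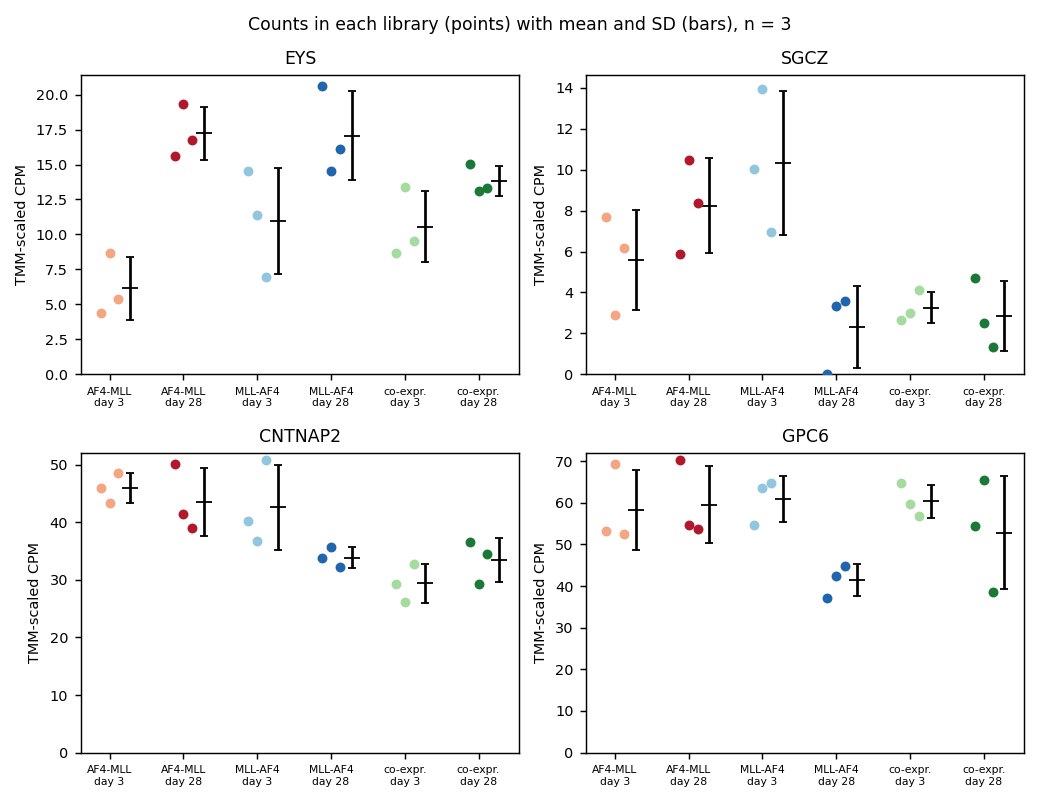
TMM-scaled CPM (vertical, from 0) in each of the 3 libraries of each group for EYS, SGCZ, CNTNAP2 and GPC6, with mean and SD beside the points. EYS is lowest in AF4-MLL cells on day 3 (mean 6.15 CPM), SGCZ is lowest in MLL-AF4 cells on day 28 (2.31 CPM), and CNTNAP2 is lowest in co-expression cells on day 3 (29.4 CPM).

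In co-expression cells 0 of the 36 genes were called between the days by edgeR, where 0.606% of all genes tested were. An unadjusted p under 0.05 was found for 1 gene, DPP6, and for 9.51% of all genes. DESeq2 called 0 of the 3 long genes to which it gave an adjusted p. DPP6 had 10.7, 9.69 and 15.0 CPM on day 3 and 18.3, 18.1 and 16.0 CPM on day 28. The groups of DPP6 did not overlap, and the log2 difference was 0.58 (SE 0.27, edgeR adjusted p 0.458).

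Medians of the 36 genes lay near 0 with TMM scaling, but genes that were not called spread more widely. Their log2 differences ran from −0.37 to 1.44 in AF4-MLL cells, −0.75 to 1.20 in MLL-AF4 cells and −0.31 to 0.74 with both fusions. In AF4-MLL cells 28 of the 36 long genes had a log2 difference above 0, with a median of 0.14 (16 of the 36 and −0.02 with an offset for gene span), while 49.6% of all genes tested were above 0 and their median was 0.00. With TMM scaling all 6 guidance or growth factor genes and all 4 synaptic genes tested were above 0. So were all 6 genes of other surface or extracellular proteins, but 5 of 12 adhesion genes were. In cells with both fusions 28 of the 36 were also above 0, with a median of 0.15 (19 and 0.02 with that offset). In MLL-AF4 cells 16 were above 0 and the median was −0.13 (16 and −0.06 with the offset). Groups did not overlap for 1 of the 36 with both fusions (14.2% of all genes tested), 8 with AF4-MLL (14%) and 10 with MLL-AF4 (20.4%). Of the 10 in MLL-AF4 cells 9 were lower on day 28, where 10.7% of all genes were. They were CDH12, CNTNAP2, GPC5, GPC6, GRM7, MACROD2, NRXN3, SGCZ and SOX5. The median distance from a fitted value to the limit of its 95% interval on the log2 scale was 0.54 with both fusions, 0.53 with AF4-MLL and 0.62 with MLL-AF4.

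The settings were then compared on the same day to ask how the genes differed between them. Settings differ in the fusions they carried and in whether MLL-AF4 was constitutive or inducible. On day 28 the induction had ended, so only the constitutive MLL-AF4 of the co-expression cells was still meant to be expressed. These comparisons share libraries with each other. On day 3, 1 of the 36 fell in co-expression cells against AF4-MLL cells, where 0.798% of all genes tested fell and 0.481% rose. The gene was CNTNAP2, which encodes a protein that gathers potassium channels along axons. Its counts were 84, 30 and 63 in AF4-MLL cells and 44, 35 and 48 in co-expression cells. As CPM these were 46.0, 43.4 and 48.5 against 29.3, 26.1 and 32.8, groups that did not overlap. Means were 46.0 ± 2.58 and 29.4 ± 3.34 CPM (SD, n = 3), and the log2 difference was −0.65 (SE 0.18, edgeR adjusted p 0.0272).

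The groups did not overlap for 2 of the 36, CNTNAP2 and DAB1 (16.5% of all genes tested). The call on CNTNAP2 was close to the threshold. It was lost without replicate 1 of AF4-MLL cells (log2 −0.66, adjusted p 0.130), replicate 3 of AF4-MLL cells (−0.61, 0.152) or replicate 1, 2 or 3 of co-expression cells (−0.64, −0.57 and −0.73, adjusted p 0.0833, 0.146 and 0.0526). DESeq2 gave −0.65 with an adjusted p of 0.138. With an offset for gene span the log2 difference was −0.52 and the adjusted p 0.120. Its 62 tested neighbours within 5 Mb had a median of 0.12, with 1 called. On day 28 CNTNAP2 had 50.1, 41.4 and 39.1 CPM in AF4-MLL cells and 36.7, 29.3 and 34.6 CPM in co-expression cells. The groups again did not overlap, and the log2 difference of −0.37 did not pass (SE 0.16, adjusted p 0.286).

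Against MLL-AF4 cells, 0 of the 36 were called in co-expression cells on day 3, where 1.81% of all genes tested were. An unadjusted p under 0.05 was found for 6 of the 36 and for 14.5% of all genes, and DESeq2 called 0 of 23. SGCZ had the smallest adjusted p, with 2.67 to 4.10 CPM in co-expression and 6.94 to 13.95 CPM in MLL-AF4 cells (log2 −1.62, SE 0.49, edgeR adjusted p 0.0573). Groups did not overlap for 5 of the 36 (19% of all genes), CDH12, CNTNAP2, DAB1, ERBB4 and SGCZ, and in all 5 the co-expression cells were lower, as they were for 9.09% of all genes. On day 28, 0 of the 36 were called (1.17% of all genes), 1 had an unadjusted p under 0.05 (11.8%) and DESeq2 called 0 of 16. There the groups did not overlap for 7 of the 36 (16%).

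Between co-expression and AF4-MLL cells on day 28, 0 of the 36 were called, where 1.69% of all genes tested were. An unadjusted p under 0.05 was found for 4 of the 36 and 12.7% of all genes, and DESeq2 called 0 of 16. Groups did not overlap for 6 of the 36 (16.8% of all genes), CDH13, CNTNAP2, CTNND2, DAB1, EYS and SGCZ, with the co-expression cells lower in all 6, as for 8.4% of all genes. DAB1, which acts in the layering of the cortex, had 11.1, 11.6 and 11.2 CPM in AF4-MLL cells and 9.40, 9.34 and 2.66 CPM in co-expression cells. Of the 36 genes, 5 had a log2 difference above 0 and the median was −0.15, or 18 and 0.00 with an offset for gene span.

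Between AF4-MLL and MLL-AF4 cells, 0 of the 36 were called on either day. Of all genes tested 0.142% were called on day 3 and 0.0793% on day 28. An unadjusted p under 0.05 was found for 4 of the 36 on day 3 (9.55% of all genes) and for 5 on day 28 (8.26%). DESeq2 called 0 of 5 and 0 of 36. On day 28 the groups did not overlap for 9 of the 36 (13.4% of all genes), and 7 of these were higher in AF4-MLL cells (6.95%). On day 3 they did not overlap for 4 (14%). SGCZ had a log2 difference of 1.75 on day 28 (SE 0.49, edgeR adjusted p 0.194) and GPC6 of 0.52 (SE 0.15, adjusted p 0.215). Both have their lowest group mean in the MLL-AF4 cells of day 28.

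The change over time was also compared between settings. Of the 36 genes 0 were called by edgeR in each of the 3 pairs of settings, where 0.232% (both fusions against MLL-AF4), 0% (both fusions against AF4-MLL) and 0.317% (AF4-MLL against MLL-AF4) of all genes tested were called. The unadjusted p was under 0.05 for 1, 2 and 6 of the 36, beside 9.73%, 5.05% and 9.75% of all genes, and DESeq2 called 0 of 9, 0 of 36 and 0 of 14. GRM7, a metabotropic glutamate receptor gene, was among the 6, with 3.84, 4.34 and 0.771 CPM on day 3 and 7.16, 3.87 and 13.95 CPM on day 28 in AF4-MLL cells. The groups overlapped.

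**Figure D3:**
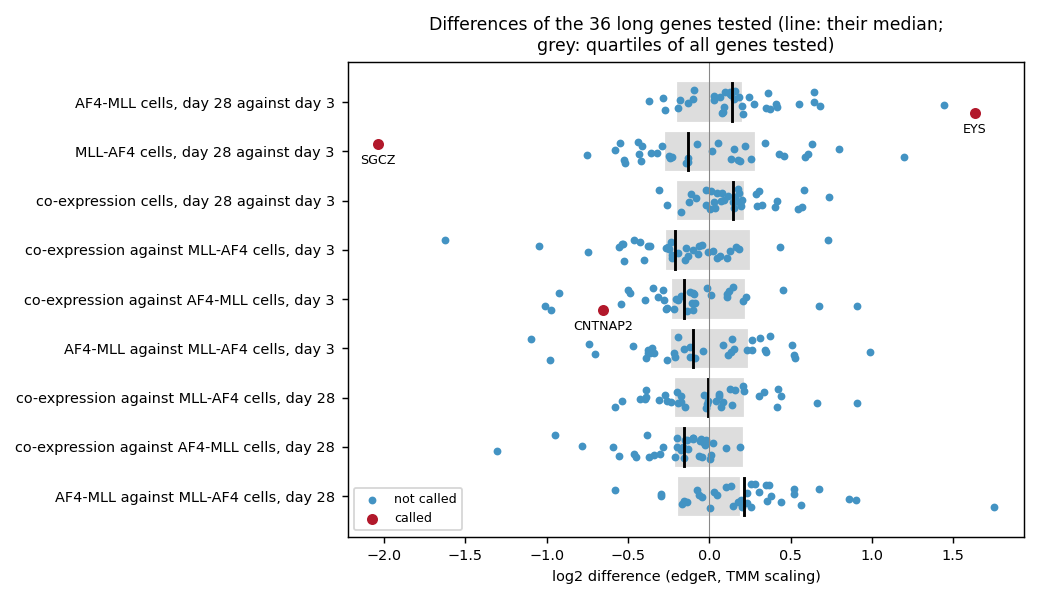
Fitted log2 differences (horizontal) of the 36 long genes tested in the 9 comparisons of days and settings. Dots are genes, the black line is their median and the grey box runs between the quartiles of all 17660 genes tested. The called genes are EYS (1.63), SGCZ (−2.03) and CNTNAP2 (−0.65), and the medians lie from −0.21 to 0.21.

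The median shifts of the long genes were set beside those of genes by span across the whole table. In AF4-MLL cells the median log2 difference between the days was −0.09 for genes under 10 kb, 0.03 for 30 to 100 kb and 0.14 for the 279 tested genes of 500 kb and over, which include the 36. In co-expression cells the same classes had −0.10, 0.04 and 0.08, and in MLL-AF4 cells −0.01, 0.03 and −0.04, beside −0.13 for the 36. On day 3, with both fusions against MLL-AF4 alone, they ran from 0.07 under 10 kb to −0.18 at 500 kb and over, beside a median of −0.21 for the 36. On day 28, with both fusions against AF4-MLL alone, they ran from 0.04 to −0.12, beside −0.15. When an offset for gene span was added to the fit, the median of the 36 went from −0.21 to 0.03 in the first of these and from −0.15 to 0.00 in the second. It went from 0.14 to −0.02 between the days with AF4-MLL, and from 0.15 to 0.02 with both fusions. Between AF4-MLL and MLL-AF4 cells on day 28 it went from 0.21 to 0.13. Without the offset, genes of 500 kb and over had a median of 0.05 there. The offset was fitted to the same counts, the 36 genes among them, so it removes shifts shared by genes of like span by construction. It is therefore no test of gene span, and the part of gene span in any difference was not tested.

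**Figure D4:**
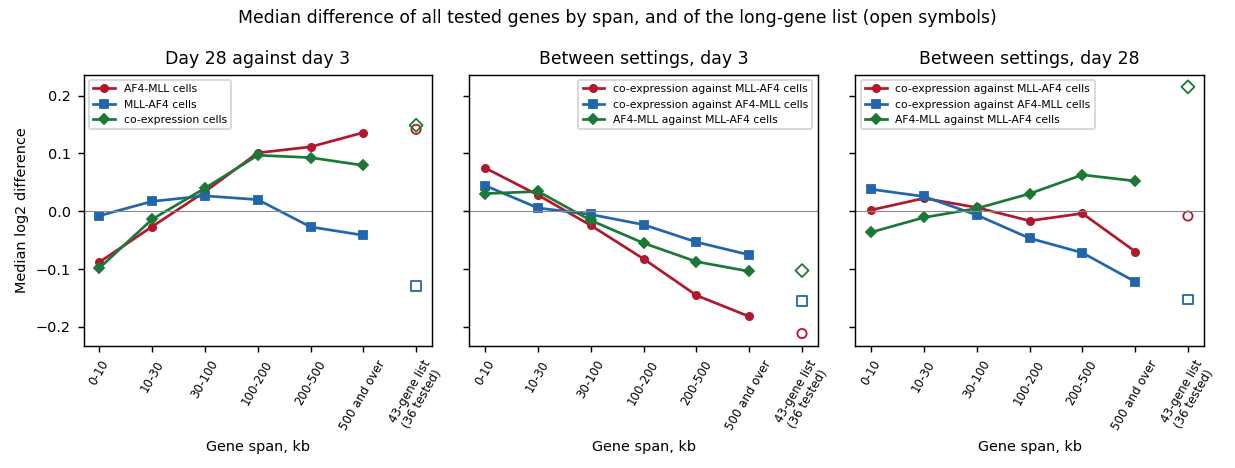
Median log2 difference (vertical) of all tested genes in 6 classes of span in kb, with lines for each comparison, and of the 36 long genes tested (open symbols). Genes under 10 kb and genes of 500 kb and over lie on opposite sides of 0 in each comparison shown except MLL-AF4 cells between the days, and the open symbols lie from −0.21 to 0.21.

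Lists of other genes were counted in the same fit. Of 47 further long genes tested, 1 was called in the 9 comparisons of days and settings. This was RBMS3, an RNA-binding protein gene, on day 3 lower with both fusions than with AF4-MLL alone (log2 −0.93, edgeR adjusted p 0.00505), where 0.798% of all genes tested were called lower. Of 197 other genes of 500 kb and over, which are on no list of named genes, 5 were called lower in that comparison. On day 3 against MLL-AF4 alone, 8 of the 197 were called lower and 1 higher with both fusions. Of all 17660 genes tested, 160 were called lower and 159 higher there (1.81% in either direction). On day 28 with both fusions, 5 were called lower against MLL-AF4 and 9 lower against AF4-MLL. Of all 17660 genes tested, 133 and 175 were called lower in these comparisons (1.17% and 1.69% in either direction). Between the days 4 were called lower and 1 higher in MLL-AF4 cells (1.57% and 1.29% of all genes), 1 higher in AF4-MLL cells (0.453%) and 0 in co-expression cells (0.606% in either direction), where 19 had an unadjusted p under 0.05 (9.51% of all genes). Genes of this length were thus called in these comparisons outside the 43 as well. Among the 27 short neuronal genes tested, 2 were called lower on day 3 with both fusions than with AF4-MLL alone (0.798% of all genes). DLG4, the gene of the postsynaptic scaffold PSD-95, was 1 of them (log2 −0.97, edgeR adjusted p 0.0375). The median of the short neuronal genes there was −0.10, beside −0.16 for the long genes and 0.24 for short genes that all cells use. Of 24 such short genes, ACTB and EEF1A1 were called in 1 comparison each on day 3 and EMC7 in 1 on day 28, all higher with both fusions. B2M was called higher with both fusions in 3 comparisons (log2 0.98 to 1.12), and TUBA1B lower in co-expression cells on day 28 than on day 3 (log2 −0.58, edgeR adjusted p 0.0470). Of 4 blood genes tested PTPRC was called, lower on day 28 with both fusions than with AF4-MLL (log2 −1.22, edgeR adjusted p 0.00627), and 0 of 9 kidney genes were called by edgeR in the 9 comparisons, with 0 to 2 at an unadjusted p under 0.05 in each.

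The share of nuclear counts on the 43 genes together was described without a test. It was 0.183%, 0.205% and 0.180% in AF4-MLL cells on day 3 and 0.210%, 0.203% and 0.200% on day 28. In MLL-AF4 cells it was 0.199%, 0.202% and 0.197% on day 3 and 0.182%, 0.180% and 0.182% on day 28. In co-expression cells it was 0.168%, 0.166% and 0.176% on day 3 and 0.177%, 0.182% and 0.180% on day 28. The days overlapped in AF4-MLL cells only, and the share was lower on day 28 in MLL-AF4 cells and higher in co-expression cells. The 7 genes that were not tested took 0.0051% to 0.0092% of the nuclear counts as group means. The further genes of 500 kb and over, 284 in the table, took means on day 3 and day 28 of 1.27% and 1.31% with both fusions, 1.33% and 1.40% with AF4-MLL and 1.42% and 1.37% with MLL-AF4.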

How the data were processed

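ATAC-seq counts per gene were analysed for 18 HEK293T libraries in 6 groups of 3. The authors deposited raw read counts of 54425 genes in 1 table. The submitters' processing notes name bcl2fastq, Bowtie2, HTSeq and the build GRCh38. The region counted per gene, the handling of duplicates and multiple alignments, and any read shift for the transposase are not given in the sources used here. Each could change a count.

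Counts were fitted in R 4.3.3 with edgeR 4.0.16 (quasi-likelihood F tests, TMM scaling, filterByExpr with minimum count 10 and total 15) over all libraries and 6 groups. A gene was called at a Benjamini-Hochberg adjusted p under 0.05 over 17660 genes. Alternatives were DESeq2 1.42.0 and its size factors, no filter, mitochondrial genes left out, offsets for abundance or gene span, a replicate block and each library left out. The code was tested on simulated data. Spans and promoters came from RefSeq tables of GRCh38.p14, matched by symbol (43 of 43, and 37 with a promoter) with pandas 2.3.3. Library totals of 442159 to 3539937 counts limit the precision.

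The 43 genes, their roles, the other lists and the tests were chosen with earlier results of these data known. Values by library are given for the called genes of the 43 in the settings of the call. For the 3 highest and 3 lowest per length, the lowest, median and highest values over the libraries are given. Comparisons of DPP6, GRM7, DAB1 and GPC6 between groups were picked after their values were seen. Called genes of the cell type and short gene lists are named although the rule for named genes did not ask for all of them, and a result on the short neuronal list is not reported here.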

Additional observations from a re-analysis of the deposited data

How the results depend on the processing

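EYS, SGCZ, CNTNAP2 and GPC6 kept their direction in the contrasts followed here, under every alternative that gave them an adjusted p. With the offset for gene span the median of the 36 genes changed sign between the days in AF4-MLL cells (−0.02), and on day 3 for co-expression against MLL-AF4 cells (0.03) and AF4-MLL against MLL-AF4 cells (0.04). On day 28 the median for co-expression against MLL-AF4 cells, −0.01 with the settings of the report, ran from −0.07 to 0.06 and was above 0 under 5 of 13 alternatives. With AF4-MLL cells between the days, leaving out single libraries gave 0 to 1 long genes called, and 1 was called under each other setting that gave an adjusted p for EYS. EYS stayed between 1.39 and 1.83 on the log2 scale. With MLL-AF4 cells between the days, leaving out single libraries also gave 0 to 1, and SGCZ stayed between −2.51 and −1.54. Between co-expression and AF4-MLL cells on day 3, 0 were called with DESeq2, without the filter on low counts and with the offset for gene span, and 0 to 1 when single libraries were left out. CNTNAP2 was called under 5 of 13 alternatives, between −0.73 and −0.52. In the other 9 contrasts 0 were called under every alternative run. The causes were not tested. Replicate numbers did not pair the libraries (correlations of same-numbered libraries from −0.09 to 0.04, and 2 of 18 libraries closest to their own number). With the replicate block 2 were called in MLL-AF4 cells between the days, GPC6 with SGCZ, and no other count changed. DESeq2 gave no adjusted p for EYS and SGCZ in their called contrasts, so no count is given there.

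Leaving out genes that overlap another RefSeq gene left none. Leaving out the 11 that overlap a protein-coding gene, chosen after seeing the data, moved the share of nuclear counts on day 3 and day 28 to 0.133% and 0.142% with both fusions, 0.153% and 0.160% with AF4-MLL and 0.157% and 0.136% with MLL-AF4. The median level of 12.6 CPM stayed between 12.2 and 13.6. At a median of 4 to 76.5 counts per library and gene, counting error limits what can be seen.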
